A study of Mus musculus with 6 samples.

Results

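The transcripts of the respiratory chain were followed in RAW264.7, a macrophage-like mouse cell line that arose in a tumour caused by a virus. RNA of 3 untreated and 3 GB2-treated samples was sequenced. GB2 is a prodrug in which a glutathione-sensitive disulfide joins the STING agonist MSA-2 to artesunate, which the study used to inhibit TREM2, a receptor of myeloid cells. The labels give no dose or time, but the study states both where it describes the transwell experiment that was sequenced. There the macrophages lay below tumor cells, and whether untreated cells were kept the same way is not stated outright. Members were the genes whose symbol starts with Nduf, Uqcr, Atp5, Cox4 to Cox8, mt-Nd, mt-Co, mt-Cytb or mt-Atp, and 116 of the 28836 genes in the table met this rule. They comprised 36 nuclear subunits of complex I, 8 complex I assembly factors, 8 subunits of complex III, 13 of complex IV, 17 of complex V, 13 mitochondrially encoded genes, 5 tissue isoforms and 16 pseudogenes by annotation or name. From RNA of RAW264.7 cells, the study reported higher glycolysis and lower oxidative phosphorylation after GB2, and it proposed a shift of metabolism. It also reported more of the glucose transporter GLUT1 and more lactic acid in the medium. The comparison here asks which transcripts of the oxidative machinery differed.

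Complex I oxidises NADH, complex III passes electrons from ubiquinol to cytochrome c, and complex IV hands them to oxygen. The proton gradient built on the way drives complex V, the ATP synthase. Complexes I, III, IV and V each combine subunits from the nuclear and the mitochondrial genome, while complex II is encoded in the nucleus alone. Several complex IV subunits exist in a widely expressed form and in a form of heart and skeletal muscle, lung or testis. In activated macrophages, respiration and glycolysis are known to shift against each other.

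Each library held between 62660734 and 77337345 estimated counts. All 10 macrophage markers were detected in each library, with a summed level of 16508 to 17054 FPKM (fragments per kilobase of exon, scaled to library size) in untreated and 7908 to 9096 FPKM in GB2-treated libraries. Most of these sums was Lyz2, with means of 13128 and 6552 FPKM. Itgam was higher after GB2, with means of 157 and 202 FPKM. Ptprc (18.2 and 18.7 FPKM) and Cd14 (699 and 651 FPKM) overlapped between the groups, and the other markers were lower. GB2-treated replicates 2 and 3 stood apart. The summed FPKM of 14 heart muscle markers was 0.30 to 0.42 in untreated libraries and 0.61 in GB2-treated replicate 1, but 299 and 437 in GB2-treated replicates 2 and 3. Of these markers, 10 to 12 were at 0 in each of the first 4 libraries and 0 in the last pair. Liver markers summed to 2.07 to 2.62, 6.25, 534 and 515 FPKM in the same order. The 4 epithelium markers summed to 0.92 to 1.23, 0.76, 34.5 and 36.4 FPKM, again in that order. The source of these transcripts was not tested. Results are therefore also given for GB2-treated replicate 1 alone, set against all untreated libraries, a fit in which the lone library is assumed to vary like the untreated ones. In bulk RNA, fewer cells of a kind and less RNA per cell cannot be told apart.

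Most respiratory chain transcripts differed little between the groups. Of 108 members with enough counts for edgeR's quasi-likelihood test, 17 were higher and 17 lower at a Benjamini-Hochberg FDR below 0.05, which is 31.5% of them, while 56.4% of all 17124 genes tested passed (26.8% higher, 29.6% lower). The 17 higher became 9 without untreated replicate 1 and 11 without GB2-treated replicate 3. With the study's second threshold, a fold of at least 2, only Cox7a1 was called, against 21.2% of all genes (13.4% higher, 7.73% lower). Cox7a1 is a muscle isoform, at 0.24 to 0.39 FPKM in untreated libraries and 0.62 FPKM in GB2-treated replicate 1. It reached 3.06 and 3.35 FPKM in replicates 2 and 3, which hold heart transcripts. The median log2 change of the members was -0.01, and its median size without sign was 0.19, against 0.55 over all genes. A log2 change under 0.5 in size was found for 94 of the 108. Values of the groups did not overlap for 42 members, 19 higher and 23 lower in GB2-treated libraries, while 63.2% of all genes did not overlap.

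**Figure D1:**
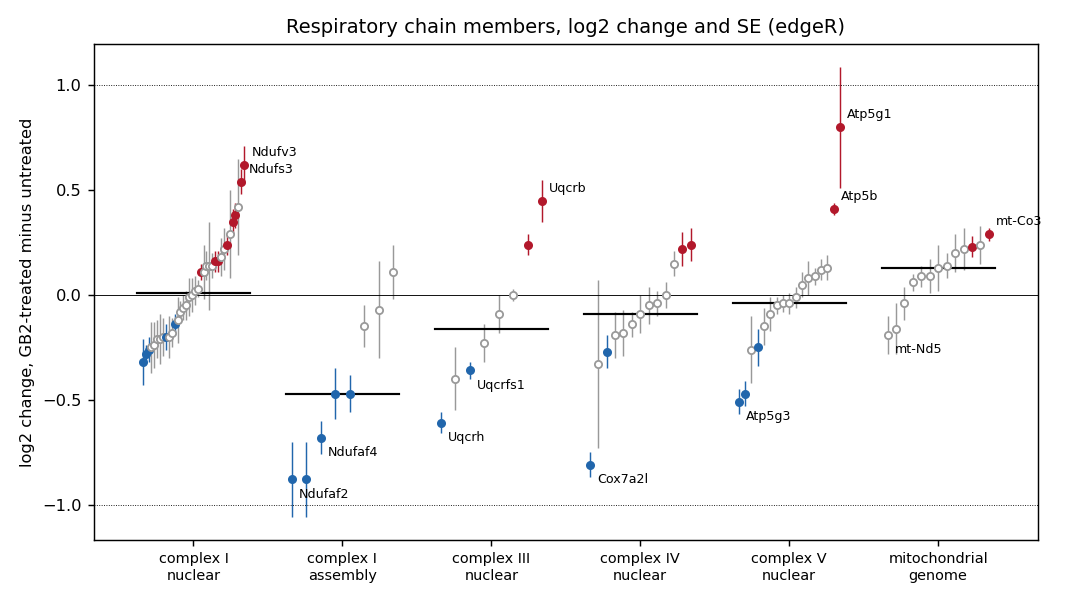
Log2 change with its standard error (vertical axis) for each tested subunit or assembly factor, sorted within its class (horizontal axis); filled red and blue points are higher and lower at an FDR below 0.05, open points did not pass, and black bars are class medians. The points lie near 0 in most classes, while the complex I assembly factors have a median of -0.47 and Cox7a2l stands lowest in complex IV at -0.81.

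The 74 nuclear subunits split evenly, with 14 higher, 12 lower and 48 not called by edgeR's quasi-likelihood test. Over all genes, that test called 26.8% higher and 29.6% lower. The subunits had a median log2 change of -0.04, and 68 of them were under 0.5 in size. Against GB2-treated replicate 1 alone, 13 were higher and 7 lower, with a median of 0.04. The background in that fit was 43.9% of 18242 genes (20.3% higher, 23.5% lower). The share of all counts that fell in nuclear subunits was 0.572% ± 0.0138 (SD, n = 3) in untreated and 0.575% ± 0.0175 (SD, n = 3) in GB2-treated libraries. Complex by complex this share was lower for complex IV, at 0.108% ± 0.00645 against 0.0884% ± 0.00551, and higher for complex V, at 0.271% ± 0.00317 against 0.291% ± 0.00714 (SD, n = 3 each). The shares of both complexes did not overlap between the groups. Such shares are weighted by the genes with most counts, which were Cox4i1 and Cox7a2l in complex IV and Atp5b in complex V. Cox4i1 and Cox7a2l fell and Atp5b rose, as given below. The median log2 change was -0.09 over the subunits of complex IV and -0.04 over those of complex V, so the shares do not describe a shift of whole complexes. These shares were not tested.

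Levels per length given below are the deposited FPKM. They follow the union of all annotated exons of a gene, since in 99 of 99 members with at least 1000 counts the ratio of count to FPKM matched that length within 10%. A gene with long, rarely used exons therefore has an FPKM below that of its main transcript, and levels of different nuclear genes are only roughly comparable. Unless stated otherwise, rises and falls of nuclear subunits and Ndufaf genes named below were chosen among members with no overlap between groups. Their separation follows from that choice and is not a result.

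Complex I was mixed, with 8 of its 36 nuclear subunits higher and 5 lower, beside 26.8% of all genes higher and 29.6% lower. The largest rise was that of Ndufv3, an accessory subunit of the NADH-oxidising arm. Its FPKM was 8.95, 9.35 and 8.10 in untreated and 14.47, 13.15 and 12.35 in GB2-treated libraries. By that choice all GB2-treated libraries lay above all untreated ones, and replicate 1 was highest. The log2 change was 0.62 ± 0.09 (SE, edgeR FDR 0.000632) and 0.80 for GB2-treated replicate 1 alone. Ndufs3, a core subunit of the arm that passes electrons to ubiquinone, had 16.53, 14.94 and 15.33 FPKM in untreated and 22.54, 20.64 and 24.30 FPKM in GB2-treated libraries. The groups were again apart by choice, and the log2 change of 0.54 ± 0.06 (SE, edgeR FDR 0.000203) was 0.61 for replicate 1 alone. Ndufs4, an accessory subunit whose loss is a known cause of Leigh syndrome, rose from 14.0 ± 0.523 to 18.0 ± 1.26 FPKM (SD, n = 3; log2 change 0.38). Ndufb9, of the membrane arm, rose from 30.3 ± 0.852 to 38.1 ± 3.16 FPKM (SD, n = 3; log2 change 0.35).

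The falls in complex I were smaller. Ndufs8, a core subunit that holds iron-sulfur clusters, had 46.94, 45.65 and 49.81 FPKM in untreated and 39.02, 36.74 and 40.18 FPKM in GB2-treated libraries. Each GB2-treated value was below each untreated value by choice of the gene. The log2 change was -0.28 ± 0.04 (SE, edgeR FDR 0.00115), and -0.20 with an FDR of 0.0577 for GB2-treated replicate 1 alone. The accessory subunits Ndufa1, Ndufb10 and Ndufb7 had log2 changes of -0.32, -0.26 and -0.20, and none of them passed the FDR threshold with replicate 1 alone (edgeR FDR 0.319, 0.074 and 0.414). Of the 8 subunits of the NADH-oxidising arm, 2 were higher and 0 lower by edgeR (3 and 0 in the DESeq2 Wald test, 2 and 1 in limma), and of the 7 nuclear core subunits 2 were higher and 1 lower. With 26.8% of all genes higher, the higher counts are near the background.

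Among the complex I assembly factors named Ndufaf, those that changed fell. Such factors build the complex and are not part of it once finished. Of the 8 Ndufaf genes, 5 were lower and 0 higher by edgeR's quasi-likelihood test, with a median log2 change of -0.47, beside 29.6% of all genes lower. The counts were 5 and 0 also at an unadjusted p under 0.05, in the DESeq2 Wald test and in limma on log2(FPKM + 1). Ndufaf3, Ndufaf5 and Ndufaf8 did not pass, with log2 changes of -0.15, 0.11 and -0.07. Of the 9 other complex I assembly factors listed, 1 was higher and 2 lower, with a median log2 change of -0.02. For GB2-treated replicate 1 alone 4 of 8 were lower, with a median of -0.46, and Ndufaf7 no longer passed (edgeR FDR 0.0605). Ndufaf4 had 5.14, 5.12 and 5.52 FPKM in untreated and 2.93, 3.34 and 3.47 FPKM in GB2-treated libraries. The fall of 37.5% was shared by all GB2-treated libraries, by choice, and was deepest in replicate 1 (log2 change -0.68 ± 0.08, SE, edgeR FDR 0.000353). Ndufaf1, needed for the membrane arm, had 8.54, 9.11 and 8.57 FPKM in untreated and 5.36, 6.23 and 7.14 FPKM in GB2-treated libraries. The GB2-treated libraries were spread more widely and all lay lower by choice (log2 change -0.47 ± 0.12, SE, edgeR FDR 0.0111).

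Ndufaf2 and Ndufaf6, chosen after their values were seen because their levels are under 5 FPKM, had log2 changes of -0.88 each. Ndufaf6 fell from 4.84 ± 0.745 to 2.58 ± 0.294 FPKM and Ndufaf2 from 1.34 ± 0.196 to 0.72 ± 0.0346 FPKM (SD, n = 3). For Ndufaf2, 65.6% of exonic bases are shared with B230220B15Rik on the other strand. If counting ignored strand, reads of the pair cannot be told apart.

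**Figure D2:**
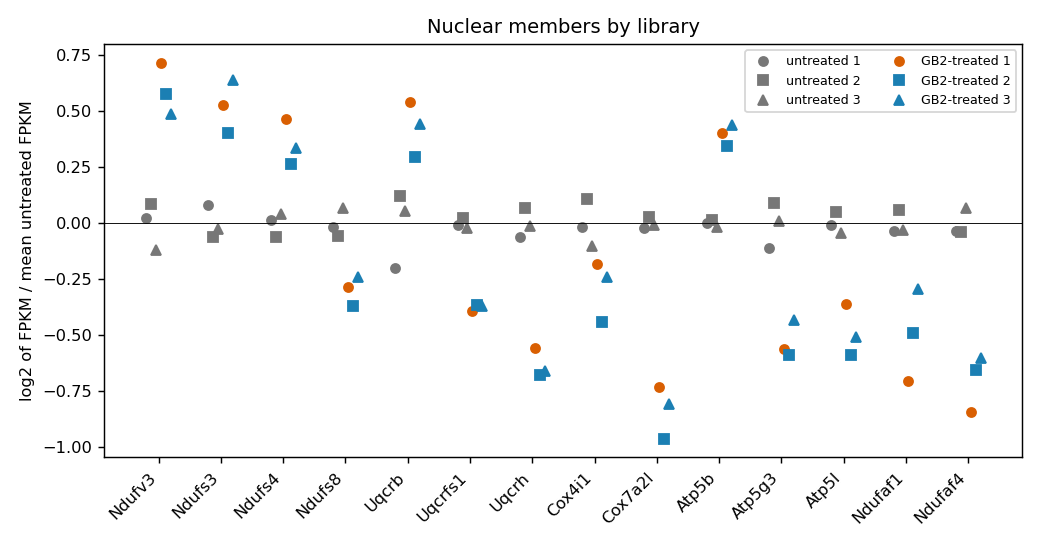
Log2 of the FPKM of each library over the mean of the 3 untreated libraries (vertical axis) for 14 nuclear members (horizontal axis); gray points are untreated libraries, orange GB2-treated replicate 1 and blue GB2-treated replicates 2 and 3. The genes shown were chosen from members with no overlap between the groups. All GB2-treated points, orange and blue, therefore lie on 1 side of the untreated points by choice.

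Complex III held both signs, with 2 of 8 subunits higher and 2 lower, beside 26.8% of all genes higher and 29.6% lower. Uqcrh, the acidic hinge protein beside cytochrome c1, had 58.83, 64.21 and 60.85 FPKM in untreated and 41.70, 38.32 and 38.79 FPKM in GB2-treated libraries. It was lower in all GB2-treated libraries by choice, with a gap between the groups wider than the range within either. The log2 change was -0.61 ± 0.05 (SE, edgeR FDR 5.09e-05), and -0.47 for replicate 1 alone. Uqcrfs1, the Rieske iron-sulfur protein, had 63.94, 65.34 and 63.28 FPKM in untreated and 48.86, 49.87 and 49.61 FPKM in GB2-treated libraries. Both groups were tight and far apart, and the log2 change was -0.36 ± 0.04 (SE, edgeR FDR 0.00014). Uqcrb, a small subunit near the ubiquinone pocket, rose from 22.8 ± 2.61 to 30.7 ± 2.64 FPKM, and the core protein Uqcrc1 from 33.7 ± 0.736 to 39.5 ± 2.93 FPKM (SD, n = 3 each; log2 changes 0.45 and 0.24). The second core protein, Uqcrc2, was level at 59.6 ± 0.669 and 59.0 ± 1.87 FPKM (log2 change 0.00 ± 0.03, SE).

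In complex IV and its partners, Cox7a2l had the largest fall. Its product, also called SCAF1, links complex III to complex IV in supercomplexes. Cox7a2l had 177.35, 183.78 and 178.79 FPKM in untreated and 108.48, 92.37 and 102.84 FPKM in GB2-treated libraries. The untreated libraries agreed closely, and the highest GB2-treated library was far below the lowest of them. The fall was 43.1%, a log2 change of -0.81 ± 0.06 (SE, edgeR FDR 1.56e-05), and -0.65 with an FDR of 6.96e-05 for GB2-treated replicate 1 alone. The alternatives gave -0.89 to -0.65, with a largest FDR of 0.000805. Cox4i1, the ubiquitous form of a regulatory subunit, had 194.52, 212.23 and 182.92 FPKM in untreated and 173.26, 144.88 and 166.22 FPKM in GB2-treated libraries. The groups were separated by a margin smaller than the range within either. The log2 change was -0.27 ± 0.08 (SE, edgeR FDR 0.0213), and with replicate 1 alone it was -0.10 with an FDR of 0.395. The 2 members that rose were Cox5b, from 19.9 ± 1.59 to 23.1 ± 1.73 FPKM, and Cox7c, from 24.6 ± 0.911 to 28.3 ± 3.12 FPKM (SD, n = 3 each; log2 changes 0.24 and 0.22, edgeR FDR 0.0327 and 0.0498).

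Apart from Cox4i1, given above, the ubiquitous partners of the tissue forms did not pass the test. Cox6a1 had 79.3 ± 9.93 and 75.9 ± 2.38 FPKM, Cox6b1 82.3 ± 10.4 and 76.5 ± 4.67, Cox7a2 36.1 ± 4.93 and 31.3 ± 2.92, and Cox8a 103 ± 15.2 and 90.1 ± 5.55 FPKM in untreated and GB2-treated libraries (SD, n = 3). In each of these 4 genes untreated replicate 2 was the highest library. Ndufa4, named for complex I but found in complex IV, had 23.0 ± 1.58 and 22.1 ± 0.331 FPKM, a log2 change of -0.04 ± 0.06 (SE, edgeR FDR 0.629). Its relative Ndufa4l2, known as a target of hypoxia-inducible factor, stayed low at 0.423 ± 0.0451 and 0.34 ± 0.11 FPKM (log2 change -0.33 ± 0.40, SE, edgeR FDR 0.512). AA467197, the mouse gene of the NDUFA4-related protein NMES1, was listed at 0 FPKM in all untreated libraries and in GB2-treated replicate 1, and at 1.47 and 1.31 FPKM in GB2-treated replicates 2 and 3. It had counts in too few libraries to enter the test. The part of heart, liver and epithelial transcripts in those values was not tested.

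In complex V, the catalytic beta subunit Atp5b had the highest mean FPKM over the 6 libraries, although in untreated libraries Atp5a1 was above it (228 against 194 FPKM). The FPKM of Atp5b was 194.36, 195.91 and 191.93 in untreated and 256.70, 246.49 and 263.09 in GB2-treated libraries. Untreated libraries lay within a narrow band, and all GB2-treated libraries were higher by choice. The rise was 33.2%, a log2 change of 0.41 ± 0.03 (SE, edgeR FDR 4.02e-05), and 0.49 for GB2-treated replicate 1 alone. Atp5g3, which encodes a form of the membrane ring subunit c, went the other way with 31.77, 36.53 and 34.55 FPKM in untreated and 23.23, 22.76 and 25.43 FPKM in GB2-treated libraries. Every GB2-treated library was below every untreated one by choice (log2 change -0.51 ± 0.06, SE, edgeR FDR 0.000232). Atp5l, subunit g of the membrane part, fell from 12.9 ± 0.416 to 9.22 ± 0.759 FPKM (SD, n = 3; log2 change -0.47).

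Another gene for the same ring subunit, Atp5g1, was described after its values were seen. It had 1.37 to 2.60 FPKM in untreated and 2.37, 3.73 and 4.55 FPKM in GB2-treated libraries, and the groups overlapped. Its log2 change of 0.80 ± 0.29 (SE, edgeR FDR 0.047) was 0.29 with an FDR of 0.475 for GB2-treated replicate 1 alone.

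Among the nuclear subunits and assembly factors, sequence upstream of the gene start was compared for short motifs. Windows of 250 bases before the start from RefSeq (GRCm38.p6) were matched for 69 of 82 tested genes, and motifs were searched on both strands. The motif of NRF-1, a factor known for driving respiratory genes (GCGC, any base, then TGCGC), was present in 12 of the 69, or 17.4%, against 7.94% of the windows of 11311 tested genes and 6.35% of those of all 14902 genes with a window. By result, it was in 0 of 11 higher, 1 of 15 lower and 11 of 43 genes that were not called. The short core bound by GABP, also called NRF-2 (CCGGAAG), was in 17.4% against 13.4% of tested genes, and that of hypoxia-inducible factor (ACGTG) in 18.8% against 21.3%. The estrogen-related receptor motif (TCAAGGTCA) was in 1 of 69, against 0.239% of tested genes. A match is a description of letters and not a binding site. In the sequences printed below, capitals do not mark the ACGTG core, which Atp5g3 also holds.

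Printed here, 5′ to 3′ on the strand of the gene, are the 250 bases upstream of the assembly factor Ndufaf4, the only lower gene with the NRF-1 motif (capitals), at chr4:24897833-24898082 on the plus strand; of the ring subunit gene Atp5g3, the only member with the estrogen-related receptor motif (capitals, read from the other strand), at chr2:73911327-73911576 on the minus strand; and of Ndufv3, which rose most in complex I and held none of the 4 motifs, at chr17:31519865-31520114 on the plus strand.
Ndufaf4: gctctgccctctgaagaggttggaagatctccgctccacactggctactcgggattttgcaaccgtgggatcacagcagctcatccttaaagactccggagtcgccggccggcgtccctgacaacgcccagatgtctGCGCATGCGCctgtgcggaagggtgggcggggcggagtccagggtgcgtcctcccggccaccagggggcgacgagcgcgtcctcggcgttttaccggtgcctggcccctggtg
Atp5g3: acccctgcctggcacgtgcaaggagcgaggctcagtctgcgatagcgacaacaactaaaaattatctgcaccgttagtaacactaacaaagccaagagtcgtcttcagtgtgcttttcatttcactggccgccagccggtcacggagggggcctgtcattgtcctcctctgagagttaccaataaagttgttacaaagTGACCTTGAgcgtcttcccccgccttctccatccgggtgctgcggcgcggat
Ndufv3: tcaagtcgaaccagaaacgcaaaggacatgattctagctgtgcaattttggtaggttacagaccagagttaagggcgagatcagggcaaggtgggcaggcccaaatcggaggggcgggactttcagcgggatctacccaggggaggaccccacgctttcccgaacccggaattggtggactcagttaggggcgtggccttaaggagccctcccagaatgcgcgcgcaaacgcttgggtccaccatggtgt

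The mitochondrial genome gave a larger share of counts than all nuclear subunits together. Its 13 protein genes took 3.90%, 3.99% and 4.01% of counts in untreated libraries and 3.99%, 4.51% and 4.58% in GB2-treated replicates 1, 2 and 3. Replicate 1 lay within the untreated range, and replicates 2 and 3 lay above it. The median log2 change of the 13 genes was 0.13, and 0.01 for replicate 1 alone. By edgeR's quasi-likelihood test 2 were higher and 0 lower, both of them core subunits of complex IV, and at an unadjusted p under 0.05 these counts were 4 and 0. The count turned on the tool, with 8 higher and 0 lower in the DESeq2 Wald test and 0 of either in limma on log2(FPKM + 1). Over all genes tested, edgeR called 26.8% higher and 29.6% lower.

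mt-Co3 had 3586, 3701 and 3765 FPKM in untreated and 4388, 4393 and 4576 FPKM in GB2-treated libraries. All GB2-treated libraries were higher, replicate 1 as much as replicate 2. The log2 change was 0.29 ± 0.03 (SE, edgeR FDR 0.000268), and 0.33 with an FDR of 3.98e-05 for replicate 1 alone. mt-Co1, which binds the oxygen-reducing heme centre and had the highest FPKM of all members, was at 11055, 11368 and 11114 FPKM in untreated and 12144, 13338 and 13474 FPKM in GB2-treated libraries. It was higher in all GB2-treated libraries, least in replicate 1 (log2 change 0.23 ± 0.05, SE, edgeR FDR 0.00444; 0.20 for replicate 1 alone). In both limma fits without a minimum level, on the log2 scale of FPKM, neither passed, with a largest FDR of 0.492 for mt-Co1 and 0.125 for mt-Co3, while both passed in limma once genes averaging below 1 FPKM were dropped (FDR 0.0301 for mt-Co1). Leaving out untreated replicate 1 or 2 also ended the call of mt-Co1, with an edgeR FDR of 0.0597 and 0.0817. mt-Co2, which takes electrons from cytochrome c, had a log2 change of 0.06 ± 0.04 (SE, edgeR FDR 0.257).

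The complex I genes of the mitochondrial genome separated GB2-treated replicate 1 from replicates 2 and 3. Together these 7 genes took 0.849%, 0.868% and 0.892% of counts in untreated libraries, 0.742% in GB2-treated replicate 1, and 0.951% and 0.975% in replicates 2 and 3. Replicate 1 was below the untreated libraries and the other replicates above them. mt-Nd5 had 1505, 1505 and 1604 FPKM in untreated and 1131, 1410 and 1444 FPKM in GB2-treated libraries. It was lower in each GB2-treated library, most in replicate 1, and did not pass with all libraries (log2 change -0.19 ± 0.09, SE, edgeR FDR 0.0973). For replicate 1 alone the log2 change was -0.36 (edgeR FDR 9.69e-05).

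mt-Nd6, the only protein gene on the light strand, had 836, 895 and 894 FPKM in untreated and 614, 854 and 856 FPKM in GB2-treated libraries. Replicate 1 alone was low (log2 change -0.43, edgeR FDR 0.000514). mt-Cytb, the mitochondrial subunit of complex III, had 2826, 2823 and 2915 FPKM in untreated and 2389, 2816 and 3004 FPKM in GB2-treated libraries. Replicate 1 was well below the untreated range, replicate 2 just below it and replicate 3 above. The log2 change for replicate 1 alone was -0.17 (edgeR FDR 0.000591), and that of mt-Nd2 was -0.11 (edgeR FDR 0.0469). With all libraries these 3 genes had log2 changes of -0.16, -0.04 and 0.13 and did not pass. For comparison, the log2 changes of mt-Co1 and mt-Co3 in replicate 1 alone were 0.20 and 0.33.

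mt-Nd1 and mt-Nd4 were at 1857 ± 65.3 and 1223 ± 22.3 FPKM in untreated libraries and at 2111 ± 300 and 1406 ± 214 FPKM in GB2-treated ones (SD, n = 3). Their log2 changes of 0.20 and 0.22 were 0.01 each for replicate 1 alone. The remaining complex I genes, mt-Nd3 and mt-Nd4l, had log2 changes of 0.24 and 0.09 and did not pass. The ATP synthase genes mt-Atp6 and mt-Atp8 had 0.09 and 0.14 and did not pass either. mt-Atp8 shares 21.1% of its bases with mt-Atp6 on the same strand. The part of heart transcripts, rich in mitochondrial RNA, in the values of replicates 2 and 3 was not tested.

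**Figure D3:**
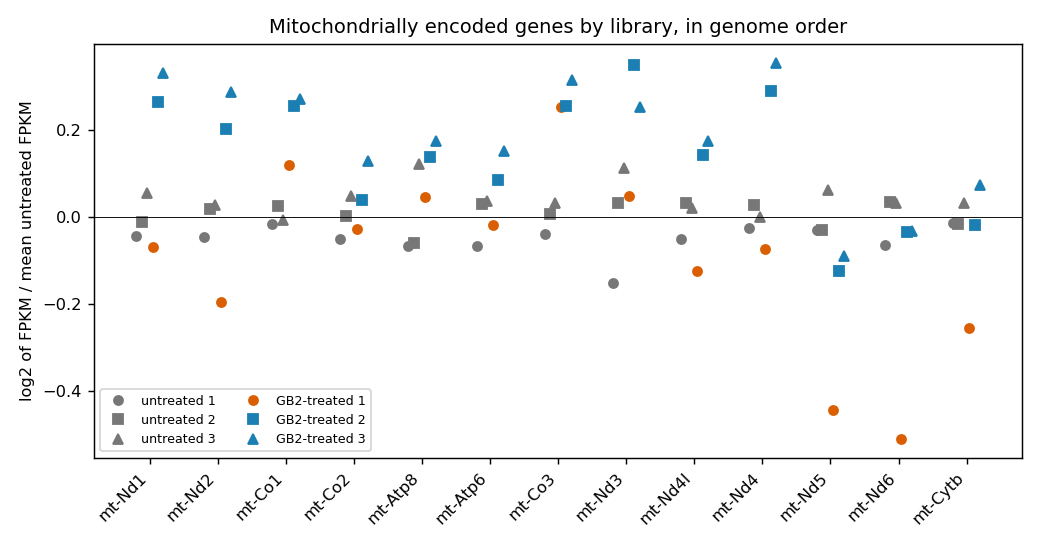
Log2 of the FPKM of each library over the mean of the untreated libraries (vertical axis) for the 13 mitochondrially encoded genes in their order along the genome (horizontal axis); gray points are untreated libraries, orange GB2-treated replicate 1 and blue replicates 2 and 3. The orange point lies above the gray ones for mt-Co1 and mt-Co3 and furthest below them for mt-Nd5 and mt-Nd6.

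Of the muscle and lung isoforms of complex IV, Cox7a1 and Cox8b were highest in the libraries that hold heart transcripts, Cox4i2 was low, and Cox6a2 was present in all libraries. Cox7a1, the heart and skeletal muscle form of subunit VIIa, had 0.31, 0.39 and 0.24 FPKM in untreated libraries, 0.62 FPKM in GB2-treated replicate 1, and 3.06 and 3.35 FPKM in replicates 2 and 3. All GB2-treated libraries were higher, and replicates 2 and 3 far above replicate 1. The log2 change was 2.89 ± 0.65 (SE, edgeR FDR 0.00684). For replicate 1 alone it was 1.08 with an FDR of 0.318, and without untreated replicate 3 the FDR was 0.0503.

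Cox8b, the muscle form of subunit VIII, was counted 0 times in all untreated libraries and in GB2-treated replicate 1, and 22 and 56 times in replicates 2 and 3. It had counts in too few libraries to enter the test. The heart marker sums given above were high in the same pair of libraries and near 0 in the other 4.

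Cox6a2, the muscle form of subunit VIa, was at 9.60, 14.26 and 9.66 FPKM in untreated and 8.26, 13.65 and 16.02 FPKM in GB2-treated libraries. The groups overlapped (log2 change 0.19 ± 0.27, SE, edgeR FDR 0.57), and for replicate 1 alone the log2 change was -0.35 (edgeR FDR 0.298). Of its exonic bases 10.3% are shared with Itgad on the other strand.

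Cox4i2, the lung form of subunit IV, had 1.62, 0.90 and 1.26 FPKM in untreated and 2.25, 1.65 and 2.00 FPKM in GB2-treated libraries. The groups were narrowly apart, with replicate 1 highest, and the log2 change was 0.66 ± 0.30 (SE, edgeR FDR 0.0966). Cox6b2, a testis form, had 0 to 22 counts and was not tested. The remaining testis forms by name, Cox7b2 and Cox8c, were not analysed here.

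**Figure D4:**
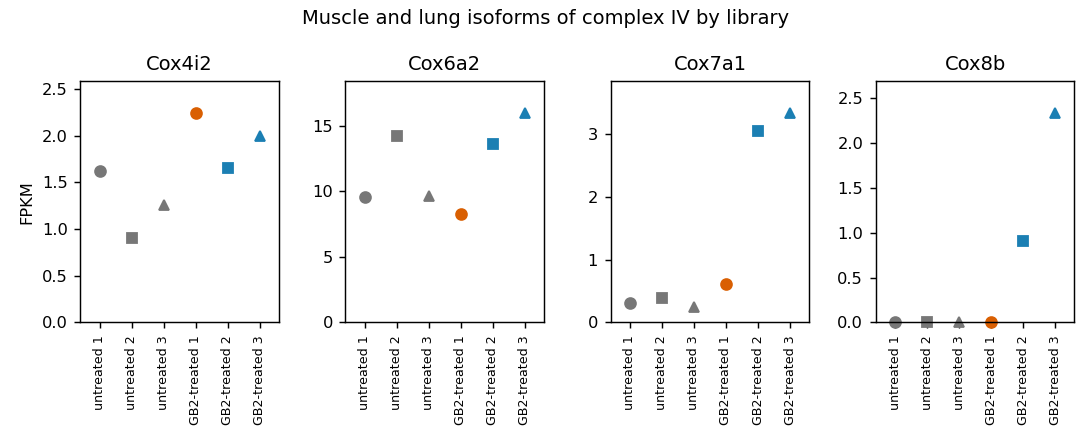
FPKM (vertical axis, from 0, scaled for each gene) of Cox4i2, Cox6a2, Cox7a1 and Cox8b in each library (horizontal axis); gray points are untreated libraries, orange GB2-treated replicate 1 and blue replicates 2 and 3. Cox7a1 reaches 3.06 and 3.35 FPKM in the blue libraries against 0.62 in the orange one, while Cox4i2 shows no such step. Cox6a2 is at 13.65 and 16.02 FPKM in the blue libraries and 8.26 in the orange one, against 9.60 to 14.26 in the gray ones.

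Of the 16 pseudogenes, 10 were tested and 0 called, with 0 also at an unadjusted p under 0.05 in edgeR's test and 0 called by DESeq2 or limma. Over all genes, edgeR called 56.4%. Some of the tested pseudogenes had few counts per library, such as Cox7c-ps1 (4 to 18) and Atp5k-ps2 (2 to 25). For those the test could hardly detect a change. The most abundant, Ndufa12-ps, had a mean of 31.2 FPKM over the 6 libraries. Reads of a subunit and its near-identical copies can be split by counting, so levels of such pairs are uncertain.

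Other genes of the chain, from a list of complex II, assembly factors, mitochondrial DNA expression and regulators, included more lower than higher calls. Of 72 tested, 12 were higher and 34 lower by edgeR's quasi-likelihood test, with a median log2 change of -0.28, beside 26.8% of all genes higher and 29.6% lower. With the fold threshold 3 were higher and 7 lower, beside 13.4% and 7.73% of all genes. Lower calls were made for 2 of 9 complex I assembly factors outside the Ndufaf genes, 4 of 6 complex III assembly factors, 8 of 20 complex IV assembly factors, 2 of 4 complex II subunits and 8 of 12 genes of mitochondrial DNA expression and upkeep. In this last group edgeR called 0 genes higher (1 at an unadjusted p under 0.05, and 1 each called by DESeq2 and limma), and its median log2 change was -0.41. Whether these shares differ from that of the subunits was not tested.

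The 8 regulators were balanced, with 4 higher and 4 lower, beside 26.8% of all genes higher and 29.6% lower. Nrf1, Gabpa and Gabpb1, which encode NRF-1 and subunits of GABP, were higher with log2 changes of 0.51, 0.24 and 0.23, and are named after their values were seen. The largest falls were those of Ppargc1b and Pprc1. Ppargc1b, a coactivator of respiratory genes, had 2.48, 2.50 and 2.40 FPKM in untreated and 0.65, 0.55 and 0.57 FPKM in GB2-treated libraries. Its relative Pprc1 had 10.17, 9.66 and 9.04 FPKM in untreated and 2.95, 3.05 and 3.12 FPKM in GB2-treated libraries. Both were low in all GB2-treated libraries, with log2 changes of -2.03 ± 0.13 and -1.65 ± 0.06 (SE, edgeR FDR 1.06e-05 and 5.99e-07), and -1.84 and -1.62 for replicate 1 alone. Ppargc1a, the third relative, was at 0.05 to 0.08 FPKM in untreated libraries, 0.04 in GB2-treated replicate 1, and 0.38 and 0.44 in replicates 2 and 3. Its log2 change of 2.17 ± 0.79 (SE, edgeR FDR 0.0494) was -0.74 with an FDR of 0.379 for replicate 1 alone.

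Among the factors that act on complex IV, Higd1a, an inner membrane protein induced by hypoxia, had 3.84, 3.85 and 3.58 FPKM in untreated and 16.86, 13.17 and 14.46 FPKM in GB2-treated libraries. Lonp1, the matrix protease that degrades some complex IV subunits, had 62.71, 58.55 and 59.09 FPKM in untreated and 139.28, 124.55 and 128.76 FPKM in GB2-treated libraries. For both genes replicate 1 was the highest GB2-treated library. The log2 changes were 2.00 ± 0.10 and 1.14 ± 0.06 (SE, edgeR FDR 2.39e-06 and 2.45e-06). Higd2a, the remaining listed gene of this group, is named after its values were seen. It fell from 37.9 ± 2.55 to 25.3 ± 2.22 FPKM (SD, n = 3), short of the fold threshold (log2 change -0.57, edgeR FDR 0.000758). The falls past both thresholds also included Coa7 and Sco2, assembly factors of complex IV (log2 changes -1.74 and -1.03), Sdhaf1 of complex II (-1.18), Tmem186 of complex I (-1.04) and the mitochondrial DNA helicase Twnk (-1.13). Each of these 5 was also lower with replicate 1 alone, by an edgeR FDR of at most 0.0399.

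**Figure D5:**
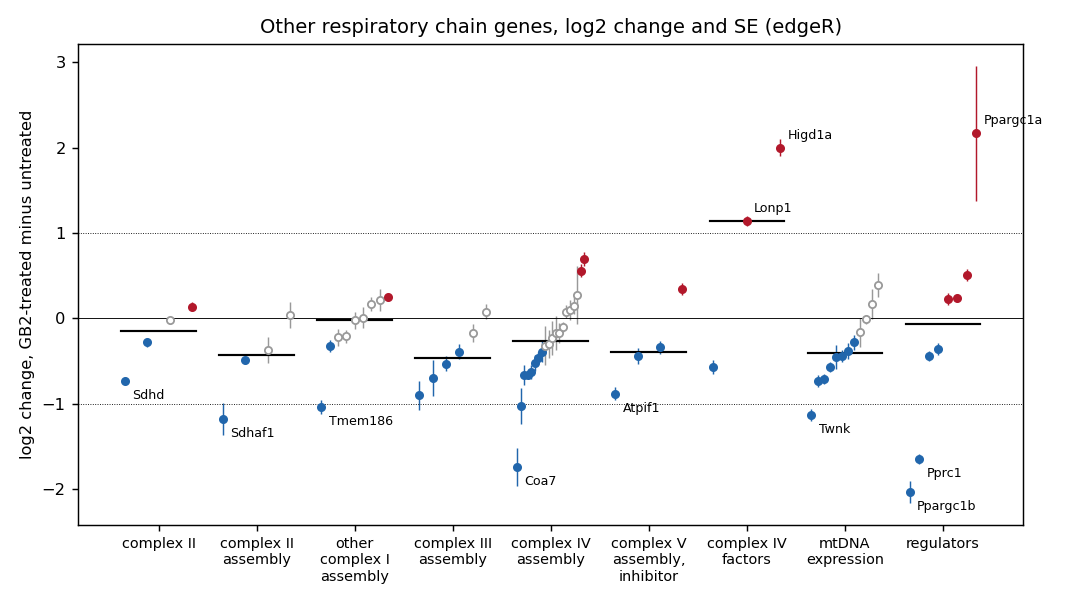
Log2 change with its standard error (vertical axis) for the other respiratory chain genes tested, by group (horizontal axis; the cytochromes are not drawn); filled red and blue points are higher and lower at an FDR below 0.05, open points did not pass, black bars are group medians and dotted lines mark the fold of 2. Higd1a at 2.00 and Lonp1 at 1.14 stand above the other factors, and Ppargc1b at -2.03 and Pprc1 at -1.65 are the lowest regulators.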

How the data were processed

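Paired-end, strand-keeping libraries of poly(A) RNA from 3 untreated and 3 GB2-treated samples were compared. Tools named in the submitters' processing notes are HISAT2 2.2.1, StringTie 2.1.6, cutadapt 1.9, edgeR and DESeq2, with the build mm10. How reads were counted, and whether by strand, is not given in the sources used here. Estimated counts, already whole numbers, and FPKM per gene were deposited by the authors. Counts of 4 were more frequent than their neighbours (952 genes against 252 with a count of 5 in the first untreated library), so a fit on counts divided by 4 was among the alternatives.

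Differences were tested over all 17124 genes by the quasi-likelihood F test of edgeR 4.0.16 (R 4.3.3), after its default filter and TMM scaling, without covariates and with Benjamini-Hochberg FDR. FDR below 0.05 and a fold of at least 2 are the study's thresholds. Log2 changes are GB2-treated minus untreated. The test was run on simulated data first. Alternatives were DESeq2 1.42.0, limma 3.58.1 on log2(FPKM + 1) or log2(FPKM + 0.1), no low-count filter, a replicate block and leaving out libraries. Exon lengths and overlaps came from GENCODE M21, where 102 of 116 members had the same start and end.

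Members and lists were chosen with earlier results of these data known. Named were tissue isoforms with their partners, all mitochondrial members, members called by both thresholds, the highest member of each class, and up to 4 rises and 4 falls per class with no overlap and at least 5 FPKM, together with listed other genes past both thresholds. A result under this rule is not reported here. Replicates are numbered by the labels, and p-values reflect only the spread among these libraries, which may in part be technical.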

Additional observations from a re-analysis of the deposited data

How the results depend on the processing

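Over 55 named genes and 16 alternatives, 744 of 875 results kept their direction and side of the FDR threshold, 74 lost the call, 34 gained one and 23 changed sign. Members higher by FDR and fold numbered 1, but 0 with counts divided by 4 or without GB2-treated replicates 2 and 3, and 0 to 2 when leaving out single libraries (0 without untreated replicate 3, and 2, Cox7a1 and Cox8b, without GB2-treated replicate 1). None was lower in any setting, leave-one-out range 0 to 0. The 17 higher by FDR alone became 11 with no filter, 28 with the DESeq2 Wald test, 10 with limma on either FPKM scale and 31 with counts divided by 4, and 9 to 22 when leaving out single libraries. The 17 lower became 12 to 20 when leaving out single libraries and 12 to 23 under the remaining alternatives. The median log2 change of nuclear subunits, -0.04, was 0.00 with DESeq2 size factors or the Wald test, 0.02 with counts divided by 4, 0.04 without GB2-treated replicates 2 and 3, and -0.08 to 0.01 leaving out single libraries, so it has no settled sign. That of mitochondrial genes, 0.13, was 0.01 without GB2-treated replicates 2 and 3 and 0.09 to 0.15 leaving out single libraries, and 0.10 to 0.19 under the remaining alternatives. The cause was not tested.

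Sign changes were found in genes that were not called, except Ppargc1a (-0.74 without GB2-treated replicates 2 and 3). Without that pair Cox6a1 was 0.06, Cox6a2 -0.35, Ndufa4 0.05, mt-Nd2 -0.11 and mt-Nd4l -0.04. With counts divided by 4 Cox6a1 was 0.01, Ndufa4 0.02 and mt-Cytb 0.02. Ndufa4 was 0.00 with DESeq2 size factors, the Wald test and without GB2-treated replicate 3. Uqcrc2 was -0.03 with no filter and -0.02 in all 3 limma fits. Leaving out single libraries gave -0.13 to 0.05 for Cox6a1, -0.17 to 0.00 for Cox6b1, -0.12 to 0.00 for Ndufa4, -0.03 to 0.04 for Uqcrc2 and -0.08 to 0.02 for mt-Cytb.

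Replicate numbers did not pair the libraries, since deviations of same-numbered libraries correlated at 0.0209, 0.0499 and 0.0143, although each library correlated best with its own number, a hint from the data and not from the design. With the replicate block 14 members were higher and 13 lower by FDR, and 1 and 0 with the fold, while the medians were -0.04 for nuclear subunits and 0.11 for mitochondrial genes.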
